A study of Mus musculus with 24 samples.

Results

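Mouse 3134 cells, a mammary adenocarcinoma line, were depleted of NIPBL with an inducible short hairpin RNA and given back a NIPBL construct that carried both the C1 and the C2 mutation, and the transcriptome of these C1-C2 cells is described here beside that of cells with either mutation alone. Libraries were taken by their titles: 4 libraries of the C1-C2 mutant were set against 8 libraries of the single mutants, 4 of C1 and 4 of C2, which together are 12 of the 24 RNA-seq libraries of the series. All 12 carried the hairpin under IPTG control, had a construct integrated with piggyBac and were grown for 3 days in charcoal-stripped serum with 1 mM IPTG. Within each construct, 2 libraries came from cells given 100 nM dexamethasone for 2 h and 2 from cells given ethanol, the vehicle, for 2 h. Cells with wild-type NIPBL (WT) and with the empty vector (EV), 4 IPTG libraries each, serve as outer points, and 4 further EV libraries were grown without IPTG. The labels do not say which residues C1 and C2 change. They name 1 line per construct, so that an effect of the construct and a difference between lines cannot be told apart. The design text calls the samples biological replicates without naming the cultures, so that p-values measure the spread between these samples.

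NIPBL and its partner MAU2 load the cohesin ring onto chromosomes and drive cohesin to extrude loops of chromatin, and heterozygous loss of NIPBL causes Cornelia de Lange syndrome in humans. Cohesin and CTCF bring enhancers to the promoters of the clustered protocadherins, which encode cell-surface adhesion proteins best known from neurons and whose choice among many promoters depends on these contacts. Dexamethasone activates the glucocorticoid receptor, the product of Nr3c1, which binds enhancers and induces genes such as Per1 and Tsc22d3 in these cells.

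The counts per library summed to 45038685 and 54924195 in C1-C2 and 54202590 to 72857880 in the single mutants with dexamethasone, and to 38280209 and 42487366 in C1-C2 and 34241415 to 40610136 in the single mutants with ethanol. Levels are given as CPM, the counts scaled to a common library size after TMM normalization. Nipbl stood at 55.5 to 65.7 CPM in the 4 C1-C2 libraries and at 48 to 73.3 CPM in the 8 single-mutant libraries, beside 54.4, 56.5, 65.1 and 62.6 CPM in EV cells with IPTG and 151 to 186 CPM in EV cells without IPTG. Nipbl counts were thus as low in the cells with a construct as in the knockdown alone, and whether reads of the constructs were counted under Nipbl is not given in the sources used here. Ethanol replicate 2 of C1-C2 bears a title that names ethanol and a treatment label that names dexamethasone. Its Per1 level was 24.4 CPM, within the 22.15 to 26.56 CPM of the 11 other ethanol libraries and far under the 268.8 to 307.8 CPM of the 12 dexamethasone libraries, so it was grouped by title, and results that rest on it are also given without it. Mammary epithelial markers were close to absent, with Epcam, Cldn3 and Cldn7 at 0 counts in all 12 libraries and Krt5, Krt18, Krt19, Cdh1, Cldn4 and Elf5 under 0.1 CPM. The 12 markers summed to 17.2 to 20.1 CPM in C1-C2 and 14.3 to 22.2 CPM in the single mutants. The 11 mesenchymal markers summed to 5670 to 5880 CPM in C1-C2, 6140 to 6410 CPM in C1 and 5740 to 6080 CPM in C2, and Vim among them was lower in C1-C2 than in C1 by a log2 difference of -0.19 (adjusted p = 0.0139 in edgeR). Vim was the 1 called gene of the 9 tested mesenchymal markers against C1, and their median log2 difference from C1 was 0, so the list as a whole did not follow it. The 8 macrophage and leukocyte markers summed to 26.2 to 29.1 CPM in C1-C2 and 25.5 to 28 CPM in the single mutants, with Adgre1 and Tyrobp at 0 in all 12 libraries. The 7 endothelial markers, with Kdr, Emcn and Cldn5 at 0, summed to 0.459 to 0.7 CPM in C1-C2 and 0.259 to 0.585 CPM in the single mutants, and 2 of them passed the filter on low counts, with a median log2 difference of 0.82 and none called. The 6 adipocyte markers, with Cfd and Lep at 0, summed to 0.345 to 2.5 CPM in C1-C2 and 0.294 to 5 CPM in the single mutants. The part of the marker differences and of the lower depth of C1-C2 with dexamethasone in the results was not tested.

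The C1-C2 mutant differed from the mean of the single mutants at few genes. Of 16934 tested genes, 47 were higher, 0.278%, and 23 lower, 0.136%, together 0.413%, at an adjusted p under 0.05 in edgeR's quasi-likelihood test with Benjamini-Hochberg adjustment, with both treatments weighted equally. The change reached 2-fold at 14 of the higher and 4 of the lower genes. The median log2 difference over all tested genes was -0.0015. Among genes with a mean of at least 1 CPM, Ms4a4d, Cox7b2 and Scara5 led the higher genes, and Ryr2, Cd48 and Tpsab1 led the lower ones. The count fell to 41, with 30 higher and 11 lower, without ethanol replicate 2 of C1-C2, and to 45 without dexamethasone replicate 1 of C1-C2. It was 34, with 24 higher and 10 lower, with the doubtful library grouped by its treatment label.

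At most of the called genes the C1-C2 mean lay beyond the means of both single mutants. The mean of C1-C2 was above the means of C1 and C2 in both treatments for 37 of the 70 called genes, below both for 21, between them for 3, 4.29%, and changed place between treatments for 9. It was thus beyond both means for 82.9% of the called genes, against 27% of all tested genes. Compared within each treatment, both C1-C2 libraries lay outside the range of the 4 single-mutant libraries, on the same side in both treatments, for 41 of the 70 genes, 58.6%, against 1.53% of all tested genes. At the 214 genes that differed between C1 and C2, 1.26% of those tested, the C1-C2 mean lay between the single-mutant means in both treatments for 123, 57.5%, against 13.2% of all tested genes, above both for 16 and below both for 14. Each set was called on the same libraries, and a wide gap between C1 and C2 leaves more room between their means, so these shares describe the sets and are neither separate evidence nor a comparison of one set with the other.

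**Figure D1:**
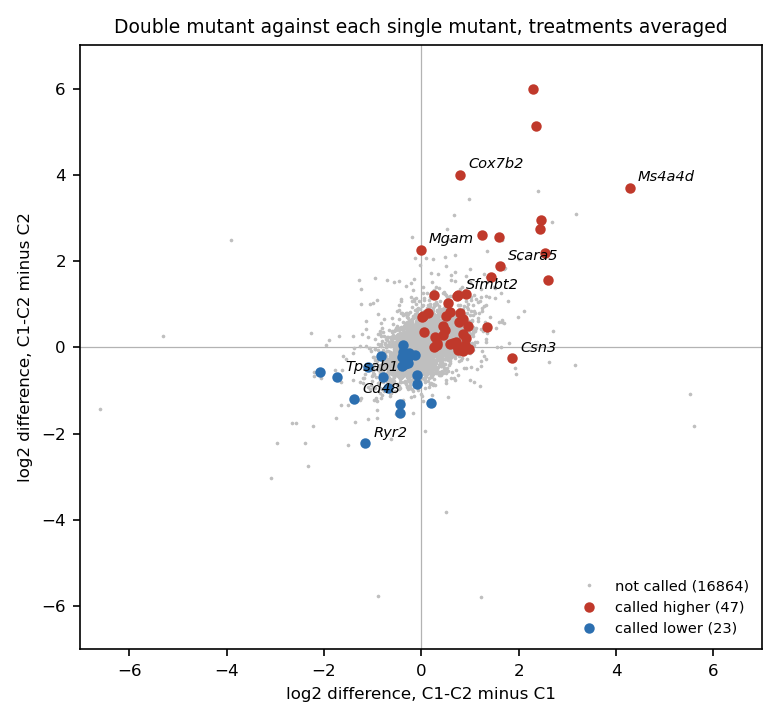
Log2 difference of C1-C2 minus C1 (horizontal axis) against C1-C2 minus C2 (vertical axis), averaged over dexamethasone and ethanol, for each tested gene. Grey points are the 16864 genes not called against the mean of the single mutants, red points the 47 called higher and blue points the 23 called lower. 1 gene lies outside the axes. Most red points sit in the upper right part and most blue points in the lower left, while Csn3 and Mgam, the second chosen after its values were seen, lie close to 0 on 1 of the axes.

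Ms4a4d, which encodes a multi-pass membrane protein of the MS4A family, showed the largest difference among genes with a mean of at least 1 CPM. Its level was 5.53 and 5.07 CPM in C1-C2 cells with dexamethasone and 4.77 and 5.31 CPM with ethanol, against 0.207 to 0.541 CPM, median 0.295, in the 8 single-mutant libraries. No single-mutant library came near any C1-C2 library, and the WT and EV libraries were also low, at 0.471 to 0.813 CPM and 0.253 to 0.485 CPM. The log2 difference from the mean of the single mutants was 3.99 ± 0.15 (SE), 15.9-fold, with an adjusted p of 3.38e-15 in edgeR, and it was 3.99 with ethanol and 4 with dexamethasone.

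Cox7b2, an isoform of a subunit of cytochrome c oxidase, reached 1.9 and 2.29 CPM in C1-C2 with dexamethasone and 3.09 and 3.26 CPM with ethanol. In C1 it stood at 1.33 and 1.33 CPM with dexamethasone and 1.64 and 1.71 CPM with ethanol, and in C2 at 0.122 to 0.226 CPM. C1-C2 was therefore highest, C1 intermediate and C2 lowest, with no overlap, while WT libraries held 0.398 to 0.796 CPM. Against the mean of both mutants the log2 difference was 2.4 ± 0.17 (SE, adjusted p = 5.61e-09 in edgeR). It was 0.79 ± 0.18 against C1 (adjusted p = 0.0275) and 4.01 ± 0.25 against C2 (adjusted p = 1.3e-10).

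Scara5, a scavenger receptor that binds ferritin, was at 6.37 and 4.53 CPM in C1-C2 with dexamethasone and 4.21 and 2.62 CPM with ethanol, against 0.456 to 2.17 CPM, median 1.27, in the single mutants. The lowest C1-C2 library lay above the highest single-mutant library of either treatment. Scara5 was 3.35-fold higher than the mean of the single mutants (log2 1.75 ± 0.23 SE, adjusted p = 0.00258 in edgeR), with WT cells at 5.01 to 9.34 CPM and EV cells with IPTG at 4.71 to 8.64 CPM, nearer to C1-C2 than to C1 or C2. In EV cells without IPTG Scara5 stood at 17.4 to 31.5 CPM. Fitted on the compared libraries alone, the adjusted p was 0.132.

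Further genes higher in C1-C2 were Sfmbt2 and Kcnf1. Sfmbt2, a Polycomb-group gene, had 6.55 and 6.83 CPM with dexamethasone and 6.56 and 6.87 CPM with ethanol in C1-C2, against 2.65 to 4.4 CPM, median 3.5, in the single mutants (log2 0.98 ± 0.08 SE, adjusted p = 9.29e-08 in edgeR). Its C1-C2 level was close to the 5.75 to 6.93 CPM of EV cells and above the 4.87 to 5.68 CPM of WT cells. Kcnf1, a modulatory subunit of voltage-gated potassium channels, stood at 31.2 and 31.1 CPM in C1-C2 and 20.4 to 22.2 CPM in the single mutants with dexamethasone, and at 13.2 and 13.4 CPM in C1-C2 and 9.6 to 10.2 CPM in the single mutants with ethanol. The groups did not overlap within a treatment, and the log2 difference of Kcnf1 was 0.48 ± 0.04 (SE, adjusted p = 7.83e-08 in edgeR). With the doubtful library under its treatment label it was 0.32 with an adjusted p of 0.857.

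Among the genes lower in C1-C2 with a mean of at least 1 CPM, Ryr2 and Cd48 differed most. Ryr2 encodes a calcium release channel of the endoplasmic reticulum and stood at 0.406 and 0.294 CPM with dexamethasone and 0.51 and 0.482 CPM with ethanol in C1-C2. It was at 0.839 to 1.01 CPM in C1 and 1.76 to 2.1 CPM in C2, so that all 3 mutants were separate. WT and EV cells with IPTG lay lower than every mutant, at 0.124 to 0.19 CPM and 0.06 to 0.162 CPM. Ryr2 was lower by a log2 difference of -1.68 ± 0.19 (SE, adjusted p = 6.84e-06 in edgeR), with -1.15 ± 0.21 against C1 and -2.22 ± 0.2 against C2.

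Cd48, a membrane-anchored receptor of the SLAM family, showed the other order. Its level was 1.35 and 1.96 CPM with dexamethasone and 1.63 and 1.68 CPM with ethanol in C1-C2, against 3.69 to 4.56 CPM, median 4.03, in the single mutants. WT cells were at 4.34 to 5.75 CPM, near the single mutants, and EV cells with IPTG at 1.27 to 2.36 CPM, near C1-C2. The log2 difference was -1.29 ± 0.12 (SE, adjusted p = 4.67e-07 in edgeR), and it was -1.29 in each treatment. Tpsab1, a mast-cell tryptase gene, was likewise lowest in C1-C2 among the 3 mutants, at 3.7 to 6.7 CPM, against 14.4 to 19.5 CPM in C1 and 6.9 to 10.8 CPM in C2. Its log2 difference was -1.21 ± 0.2 (SE, adjusted p = 0.0151 in edgeR), and against C2 alone -0.7 ± 0.23 (adjusted p = 0.443). The first call was lost, with adjusted p values of 0.129, 0.0552 and 0.0808, without ethanol replicate 1, ethanol replicate 2 or dexamethasone replicate 1 of C1-C2.

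At 3 further genes lower in C1-C2, that mutant was close to WT and the single mutants stood above both. Cfap44, a gene of the motile cilium, had 2.26 and 2.33 CPM with dexamethasone and 2.88 and 2.53 CPM with ethanol in C1-C2, against 3.69 to 4.74 CPM in the single mutants, with WT at 2.31 to 2.65 CPM. Nhs, an actin regulator mutated in Nance-Horan syndrome, was at 10.1 to 11.3 CPM in C1-C2, 12.2 to 14.5 CPM in the single mutants and 9.89 to 10.6 CPM in WT. Fry, a microtubule-binding protein gene, was at 45.6 to 51 CPM in C1-C2, 54.6 to 64 CPM in the single mutants and 45.1 to 51.2 CPM in WT. The log2 differences from the mean of the single mutants were -0.74 ± 0.11 for Cfap44, -0.32 ± 0.05 for Nhs and -0.28 ± 0.05 for Fry (SE), with adjusted p values of 0.000478, 0.00154 and 0.00276 in edgeR. The other named lower genes, Olfr1349, Fndc4, Esx1, Serpinb9c, Etl4 and Fam162a, differed by -0.81, -0.41, -0.36, -0.31, -0.23 and -0.16, and each of them lost its call on leaving out at least 2 of the 12 libraries in turn. In Fam162a 19.8% of the exon bases lie opposite Wdr5b, and the strand setting of the counting is not given in the sources used here.

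**Figure D2:**
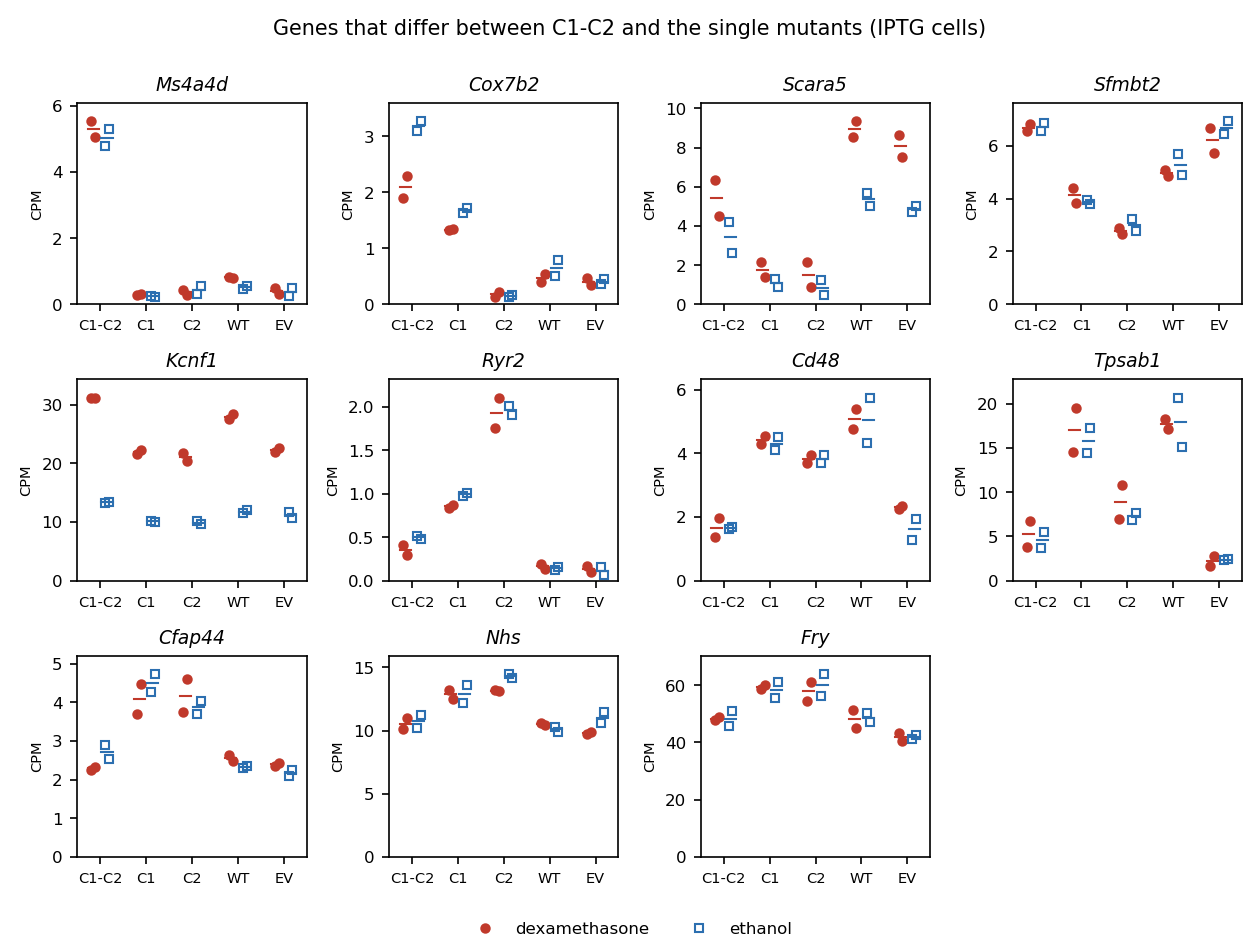
CPM in each library (points) and the mean of 2 libraries (lines) for 11 genes that differ between C1-C2 and the single mutants, in IPTG cells with dexamethasone (red, filled) or ethanol (blue, open). The panels show Ms4a4d and Cox7b2 highest in C1-C2, Ryr2 intermediate between the single mutants and WT, Cd48 and Tpsab1 low in C1-C2 and EV, and Cfap44, Nhs and Fry near WT. Each vertical axis starts at 0.

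Ms4a4d, Cox7b2, Sfmbt2, Ryr2, Cd48, Cfap44, Nhs and Fry kept their direction and their call under all 23 alternatives run, the relabelled and the left-out libraries included. The same held for Rsad2 and Cmpk2, which are described below. Over the 70 called genes, C1-C2 was nearer to EV with IPTG than the mean of the single mutants was for 50 genes, 71.4%, against 50.4% of all tested genes. It was nearer to WT for 43 genes, 61.4%, against 59.1% of all tested genes, a share close to the background. The median absolute log2 distance of the called genes from EV was 0.192 for C1-C2 and 0.449 for the mean of the single mutants. From WT these distances were 0.282 and 0.358. These are counts without a test, and the C1-C2 and single-mutant libraries that made the call enter them.

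Set against each single mutant in turn, C1-C2 differed from C1 at 120 genes, 69 higher, 0.407%, and 51 lower, 0.301%, together 0.709% of those tested, and from C2 at 92 genes, 54 higher, 0.319%, and 38 lower, 0.224%, together 0.543%. The first count was 79, 77, 80 and 72 without ethanol replicate 1, ethanol replicate 2, dexamethasone replicate 1 or dexamethasone replicate 2 of C1, and 71, 74, 66 and 70 without those of C1-C2. The count against C2 was 57, 56 and 56 without ethanol replicate 1, ethanol replicate 2 or dexamethasone replicate 2 of C1-C2, and 59 without ethanol replicate 2 of C2. Csn3, which encodes kappa-casein, was called higher than in C1 and was not called against C2. It stood at 2.46 and 2.26 CPM with dexamethasone and 2.04 and 2.07 CPM with ethanol in C1-C2, against 0.422 to 0.741 CPM in C1 and 2.42 to 3.05 CPM in C2, with WT at 2.37 to 3.28 CPM. The log2 difference was 1.87 ± 0.16 against C1 (SE, adjusted p = 2.96e-07 in edgeR) and -0.25 ± 0.14 against C2 (adjusted p = 0.686), so that the C1-C2 libraries stood apart from C1 and near C2 and WT.

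Ncam1, a neural adhesion gene of the cadherin and adhesion list, chosen after its values were seen, lay between the single mutants. It was at 0.519 and 0.367 CPM with dexamethasone and 0.179 and 0.574 CPM with ethanol in C1-C2, against 1.33 to 1.82 CPM in C2 and 0.014, 0.0371, 0 and 0 CPM in C1. Ncam1 was lower than in C2 by a log2 difference of -1.83 ± 0.27 (SE, adjusted p = 0.000554 in edgeR) and higher than in C1 with an adjusted p of 3.35e-05. No fold against C1 is given because both C1 libraries with ethanol held 0 counts. Hist1h4i, a histone H4 gene also chosen after its values were seen, was at 29.9, 32, 33 and 33.3 CPM in C1-C2 and 30.9 to 37.6 CPM in C1, against 46.2 to 53.5 CPM in C2. Its log2 difference from C2 was -0.63 ± 0.05 (SE, adjusted p = 6.28e-08 in edgeR), and from C1 -0.09 with an adjusted p of 0.876.

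Among the 17 pathway lists, the clustered protocadherins had the largest median difference. Of 43 genes listed, 27 passed the filter on low counts, 3 of them were called higher in C1-C2 than in the mean of the single mutants and 0 lower, where 0.278% of all tested genes were called higher. The median log2 difference was 0.65 over the 27 genes, against -0.0015 over all tested genes, and 22 of the 27 were above 0, against 49.1% of all tested genes. Against C1 the median was 0.26 and against C2 0.86. Many of the 27 genes had few counts, so the medians are imprecise. Pcdhgb6, the gene at the median of 0.65, had 37 counts in all C1-C2 libraries together and 51 in all single-mutant libraries (adjusted p = 0.771 in edgeR). Pcdhga3 had 6 and 19 counts, and Pcdhgb5 7 and 4. The called genes were Pcdhb16, Pcdhb17 and Pcdhgb7.

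Pcdhb16 was at 3.09 and 2.29 CPM with dexamethasone and 3.29 and 2.55 CPM with ethanol in C1-C2, against 1.31 to 1.72 CPM with dexamethasone and 1.48 to 2.4 CPM with ethanol in the single mutants. C1-C2 lay above every single-mutant library of its treatment and under or within the 3.2 to 3.97 CPM of WT cells, while EV cells with IPTG held 0.988 to 1.39 CPM. The log2 difference was 0.71 ± 0.12 (SE, adjusted p = 0.00455 in edgeR). Pcdhgb7 was at 1.49 to 1.81 CPM in C1-C2, 0.627 to 1.25 CPM in the single mutants, 2.39 to 2.68 CPM in WT and 0.202 to 0.481 CPM in EV, with a log2 difference of 0.79 ± 0.16 (SE, adjusted p = 0.0115 in edgeR). In Pcdhgb7 45% of the exon bases are shared with other genes of the gamma cluster on the same strand, so that counts of single gamma genes are uncertain. Pcdhb17 differed by 0.79 ± 0.18 (SE, adjusted p = 0.0457 in edgeR). Its call was lost on leaving out any of 9 of the 12 libraries, and that of Pcdhgb7 on leaving out any of 3. Without ethanol replicate 1 or without dexamethasone replicate 1 of C1-C2, 0 of the 27 genes were called, with adjusted p values of 0.0816 and 0.0921 for Pcdhb16.

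The other 24 tested protocadherins were not called. Pcdhgc3, the most abundant of them, was at 168 to 182 CPM in C1-C2 and 163 to 191 CPM in the single mutants, with a log2 difference of -0.01. Below 0 were also Pcdha1, Pcdhga1, Pcdhga3 and Pcdhgb8. Pcdhga4 had the largest fitted difference on only 6, 1, 3 and 6 counts in C1-C2, against 5 counts in all 8 single-mutant libraries together. Across the 27 genes the median log2 distance from WT was -0.89 in C1-C2, -1.15 in C1 and -1.68 in C2, so that all 3 mutants lay under WT on the median.

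Of 24 interferon-stimulated genes, effectors and sensors of the antiviral response, 22 were tested. Rsad2 and Oasl2 were called higher in C1-C2 than in the mean of the single mutants and 0 were called lower, where 0.278% and 0.136% of all tested genes were. The median log2 difference was 0.14, with 20 of 22 genes above 0, against 49.1% of all tested genes. Against C1, 5 genes were higher, against 0.407% of all tested genes, 0 were lower and the median was 0.39. Against C2, 0 were higher, Oasl1 was lower, against 0.224% of all tested genes, and the median was 0.03. Rsad2, which encodes the antiviral enzyme viperin, stood at 8.13 and 7.14 CPM with dexamethasone and 11.4 and 9.69 CPM with ethanol in C1-C2, against 3.48 to 5.82 CPM and 4.97 to 8.52 CPM in the single mutants, so that the groups did not overlap within a treatment. Its log2 difference was 0.72 ± 0.1 (SE, adjusted p = 0.00046 in edgeR), and EV cells with IPTG were at 6.04 to 9.48 CPM and WT cells at 3.22 to 6.45 CPM.

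Cmpk2, an interferon-induced mitochondrial nucleotide kinase gene that neighbours Rsad2 on chromosome 12, moved the same way. It was at 1.47 and 1.41 CPM with dexamethasone and 2.32 and 2.44 CPM with ethanol in C1-C2, against 0.649 to 0.792 CPM in C1 and 0.958 to 2.06 CPM in C2. The log2 difference was 0.91 ± 0.15 from the mean of the single mutants (SE, adjusted p = 0.00154 in edgeR), 1.36 ± 0.18 from C1 (adjusted p = 6.35e-05) and 0.47 ± 0.17 from C2 (adjusted p = 0.435). Ddx60, a helicase gene of the same response outside the list, chosen after its values were seen, was at 1.08, 1.23, 1.63 and 1.4 CPM in C1-C2 and at 0.222 to 0.844 CPM in the single mutants, where WT libraries held 1.04 to 2.11 CPM and EV libraries 0.968 to 1.38 CPM. It was higher by a log2 difference of 1.53 ± 0.18 (SE, adjusted p = 1.72e-05 in edgeR). Against C1 alone, Ifit1 was higher by 0.41 ± 0.07, Isg15 by 0.41 ± 0.09, Oasl1 by 0.5 ± 0.11 and Oasl2 by 0.58 ± 0.09 (log2, SE), with adjusted p values of 0.00207, 0.032, 0.0194 and 0.000373 in edgeR. Oasl1 was at 5.08 to 5.55 CPM in C1-C2, between 3.03 to 4.09 CPM in C1 and 7.24 to 8.12 CPM in C2. The call of Oasl2 against the mean of the single mutants, adjusted p = 0.0482, was lost on leaving out any of 11 of the 12 libraries.

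The promoters of Rsad2, Oasl2, Cmpk2 and Ddx60 are shown because these 4 genes of the interferon response were called higher in C1-C2 and are described above. The sequences are RefSeq's on GRCm38.p6, from 250 bases before to 50 after the start of the gene, at chr12:26456403-26456702 on the minus strand for Rsad2, chr5:114896684-114896983 on the plus strand for Oasl2, chr12:26468965-26469264 on the plus strand for Cmpk2 and chr8:61927837-61928136 on the plus strand for Ddx60. Capitals mark matches, on either strand, of GAAA, any 2 bases (NN) and GAAA, the core of the interferon-stimulated response element.
Rsad2: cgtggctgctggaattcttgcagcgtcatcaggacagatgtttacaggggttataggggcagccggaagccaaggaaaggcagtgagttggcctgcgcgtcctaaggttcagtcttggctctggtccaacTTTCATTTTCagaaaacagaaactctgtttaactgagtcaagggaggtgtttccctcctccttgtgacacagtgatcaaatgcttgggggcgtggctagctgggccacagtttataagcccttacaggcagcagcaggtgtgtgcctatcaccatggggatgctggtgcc
Oasl2: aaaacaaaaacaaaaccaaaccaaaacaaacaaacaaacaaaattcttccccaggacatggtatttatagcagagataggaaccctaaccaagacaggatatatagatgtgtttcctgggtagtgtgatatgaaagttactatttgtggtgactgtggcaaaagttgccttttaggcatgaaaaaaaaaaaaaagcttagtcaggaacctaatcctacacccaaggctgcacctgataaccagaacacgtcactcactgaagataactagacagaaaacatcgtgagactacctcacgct
Cmpk2: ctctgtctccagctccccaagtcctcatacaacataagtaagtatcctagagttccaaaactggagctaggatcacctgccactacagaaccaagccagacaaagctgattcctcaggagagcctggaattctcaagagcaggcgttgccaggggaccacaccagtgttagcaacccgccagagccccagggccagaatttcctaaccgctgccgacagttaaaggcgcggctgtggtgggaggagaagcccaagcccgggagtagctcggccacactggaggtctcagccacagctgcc
Ddx60: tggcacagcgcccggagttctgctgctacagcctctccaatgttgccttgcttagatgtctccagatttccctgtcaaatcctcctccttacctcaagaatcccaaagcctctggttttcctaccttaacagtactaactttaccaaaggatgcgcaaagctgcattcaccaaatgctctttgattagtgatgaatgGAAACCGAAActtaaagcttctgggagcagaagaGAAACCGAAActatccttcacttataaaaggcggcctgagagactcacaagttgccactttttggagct
The window of Rsad2 held 1 match and that of Ddx60 2, while these letters are not in the windows of Oasl2 and Cmpk2. Of 32851 RefSeq promoters of this length, 3.44% held a match, as did 12 of the 18 list genes with a promoter in the table. The first share counts promoters. The second counts genes with a match in any of their promoters, so the shares are not like for like. A match describes the letters only.

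**Figure D3:**
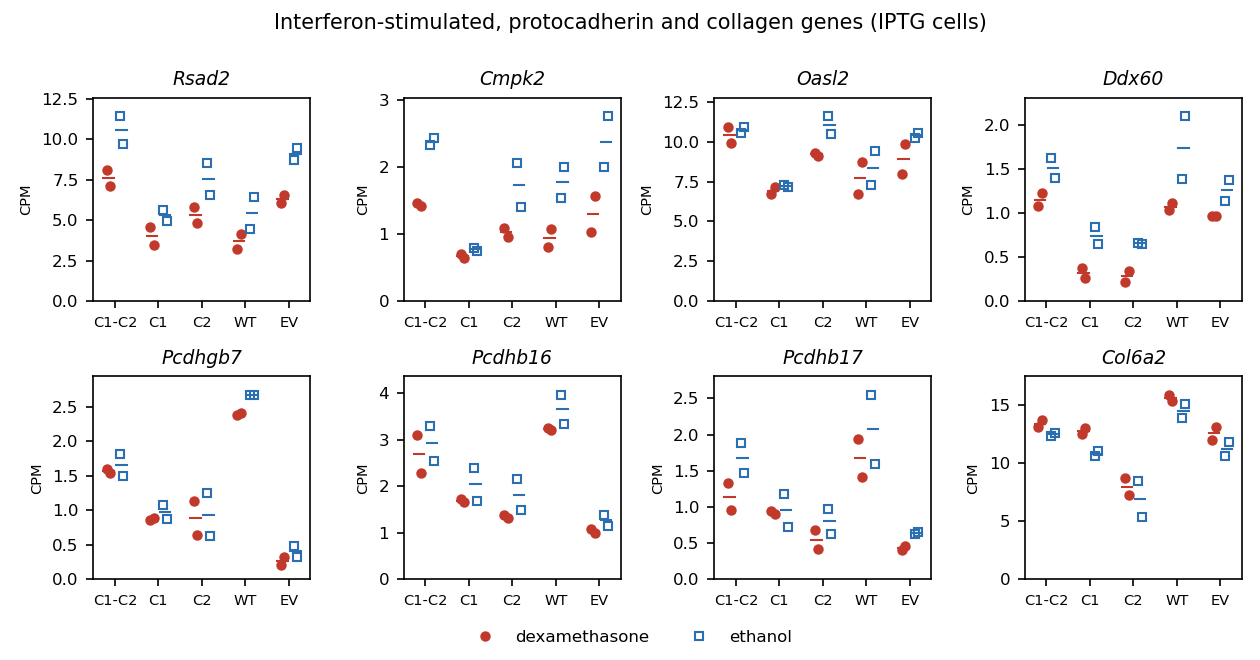
CPM in each library (points) and the mean of 2 libraries (lines) for 4 interferon-response genes, 3 clustered protocadherins and Col6a2, in IPTG cells with dexamethasone (red, filled) or ethanol (blue, open). Rsad2 and Cmpk2 were lowest in C1 among the mutants and highest in C1-C2, and the protocadherins in C1-C2 lay between the single mutants and WT. Each vertical axis starts at 0.

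Collagens and other matrix genes held 1 called gene of 18 tested, a higher one, where 0.278% of all tested genes were called higher. Col6a2, a chain of collagen VI, was at 13.1 and 13.7 CPM with dexamethasone and 12.4 and 12.6 CPM with ethanol in C1-C2, against 10.6 to 13 CPM in C1 and 5.36 to 8.73 CPM in C2. The log2 difference was 0.47 ± 0.09 from the mean (SE, adjusted p = 0.0306 in edgeR), with 0.14 ± 0.11 against C1 (adjusted p = 0.943) and 0.79 ± 0.11 against C2 (adjusted p = 0.000934). The call against the mean was lost on leaving out any of 9 of the 12 libraries. Thbs2, a thrombospondin gene, was also higher than in C2, by 0.78 ± 0.18 (log2, SE, adjusted p = 0.041 in edgeR). The median of the list was 0.08, with 15 of 18 genes above 0, against 49.1% of all tested genes.

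The other 14 lists held 0 called genes in either direction against the mean of the single mutants, by edgeR, where 0.413% of all tested genes were called. At so low a share, 0 calls in lists of this size are near the background. Cohesin and its regulators, 15 genes that include Nipbl and Mau2, ran from -0.1 to 0.07 with a median log2 difference of -0.02. Nipbl differed by 0.07 ± 0.06 (SE, adjusted p = 0.895 in edgeR) and Mau2, at 56.2 to 64.8 CPM in C1-C2 and 54.4 to 61.9 CPM in the single mutants, by 0.03 ± 0.04 (adjusted p = 0.91). The 25 tested glucocorticoid-induced genes had a median of 0.01, and the 10 tested glucocorticoid-repressed inflammatory genes also 0.01. Replication-dependent histone genes had a median of -0.09, with 1 of 23 above 0, and cell cycle and replication genes one of -0.05, with 2 of 24 above 0, where 49.1% of all tested genes were above 0. Mitochondrially encoded genes had a median of -0.14 over 15 genes. The medians of p53 targets, Hox genes, immediate early genes, sterol and fatty acid synthesis genes, ATF4 and unfolded protein response genes, matrix proteases and inhibitors, ribosomal protein genes and cadherins and adhesion genes lay between -0.04 and 0.02.

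**Figure D4:**
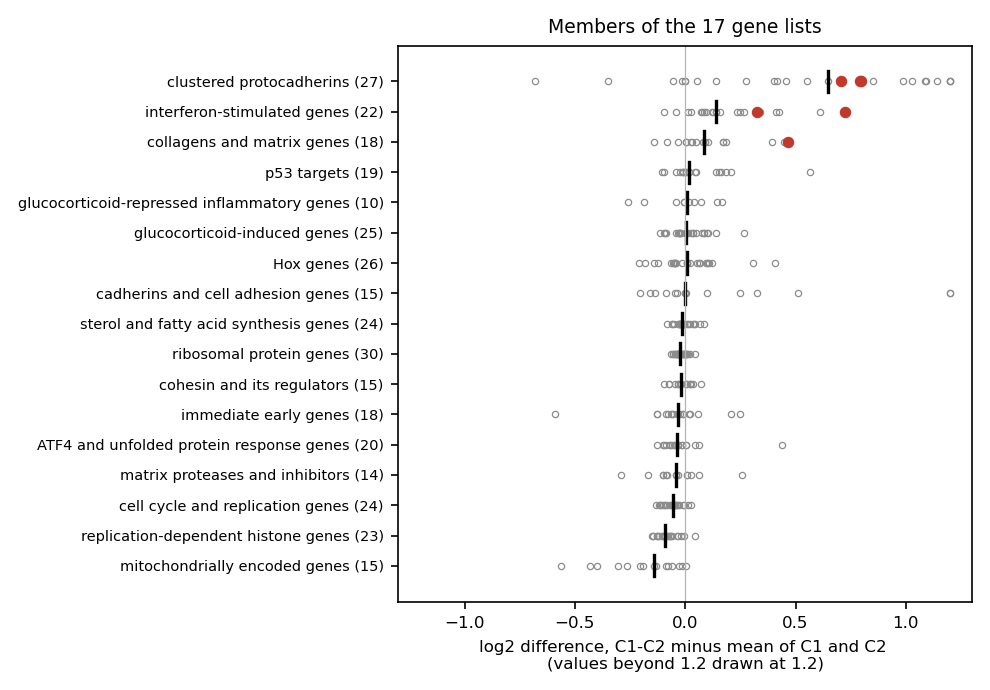
Log2 difference of C1-C2 minus the mean of C1 and C2 for the tested members of each of the 17 gene lists, with the number tested in brackets. Grey circles are genes not called, red points genes called at an adjusted p under 0.05, and black bars list medians. Values beyond 1.2 are drawn at 1.2. The clustered protocadherins reach furthest to the right, and red points occur in 3 lists.

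The difference between C1-C2 and the single mutants was read in each treatment on its own. With dexamethasone 17 genes were called, 12 higher and 5 lower, 0.1% of those tested, and with ethanol 16, 13 higher and 3 lower, 0.0945%. The libraries compared differ between the treatments. Both comparisons used the same estimate of spread per gene, fitted on all 24 libraries, and the same 1 line per construct. They are therefore not independent. Called in both were 11 genes, 64.7% of the dexamethasone list and 68.8% of the ethanol list, among them Ms4a4d, Cox7b2, Sfmbt2, Kcnf1, Ryr2 and Cd48. All 17 dexamethasone genes had the same direction with ethanol, and all 16 ethanol genes the same direction with dexamethasone, where 58.4% of all tested genes had the same sign in both. With 1 library left out, the ethanol count was 3 and 6 without C1-C2 replicate 1 or 2, 8 and 9 without C1 replicate 1 or 2, and 7 without C2 replicate 2. The dexamethasone count was 11 without C1 replicate 2 and 9 without C1-C2 replicate 2.

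No gene passed the test of a difference between the response to dexamethasone of C1-C2 and the mean response of the single mutants. The test called 0 genes in edgeR and 0 in DESeq2, and 290 genes had an unadjusted p under 0.05 in edgeR, of 16934. That is fewer than evenly spread p-values would give. With 2 libraries per group, the test therefore does not show that the responses were equal. It called 1 gene without ethanol replicate 2 and 1 without dexamethasone replicate 1 of C1-C2. Per1, a clock gene induced directly by the receptor, was at 287 and 278 CPM in C1-C2 and 269 to 294 CPM in the single mutants with dexamethasone, and at 24.4 and 24.4 CPM in C1-C2 and 24.8 to 26.3 CPM in the single mutants with ethanol. Tsc22d3, which encodes the anti-inflammatory protein GILZ, was at 160 and 170 CPM in C1-C2 and 148 to 198 CPM in the single mutants with dexamethasone, and at 11.9 and 12.3 CPM in C1-C2 and 9.95 to 12.4 CPM in the single mutants with ethanol. The difference of responses was 0.08 ± 0.06 for Per1 and -0.13 ± 0.11 for Tsc22d3 on the log2 scale (SE), each with an adjusted p of 1 in edgeR. Nr3c1, the receptor gene, differed by -0.03 ± 0.03 (SE, adjusted p = 0.91 in edgeR) from the mean of the single mutants with treatments averaged.

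Whether the mutations added up was tested as a departure from additivity, the log2 level of C1-C2 minus C1 minus C2 plus WT, which is 0 where the distances of C1 and C2 from WT sum to that of C1-C2. The test called 990 genes, 455 higher than the sum, 2.69%, and 535 lower, 3.16%, together 5.85% of those tested. All terms share the WT libraries, and 721 genes were called without dexamethasone replicate 1 of WT and 1448, 754 higher and 694 lower, without dexamethasone replicate 2 of WT. Leaving out other libraries moved the count to 1581 without ethanol replicate 1 and 463 without ethanol replicate 2 of C1, 563 without dexamethasone replicate 2 of C1, 600 and 501 without ethanol or dexamethasone replicate 2 of C2, 621 without ethanol replicate 2 of WT, and 527, 573 and 543 without ethanol replicate 1, dexamethasone replicate 1 or dexamethasone replicate 2 of C1-C2. Removal of a trend with GC content and gene length, chosen after the data were seen, gave 1344 genes, 476 higher and 868 lower.

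At most of the called genes C1-C2 lay short of the sum. In 903 of the 990, 91.2%, C1-C2 lay on the same side of WT as both single mutants, nearer than their distances added. The same held for 64.5% of all tested genes, so falling short of the sum was common outside the called genes too. In 1 called gene C1-C2 lay at a larger distance than the sum, against 5.29% of all tested genes. It lay on the opposite side in 67, 6.77%, against 10.3% of all tested genes. In 19 called genes, 1.92%, the single mutants lay on opposite sides, against 19.9% of all tested genes. C1-C2 was nearer to WT than either single mutant in 723, 73%, between them in 170, 17.2%, and farther than either in 11, 1.11%. Over all tested genes it was between them in 23.1% and farther than either in 14.8%. The median absolute log2 distance from WT was 0.161 for C1-C2, 0.249 for the mean of the single mutants and 0.499 for their sum, while C1-C2 and the mean of the single mutants were 0.084 apart. Over all tested genes C1-C2 was nearer to the mean of the single mutants than to their sum for 82.6%, and it was nearer to WT than either single mutant for 31.9%. The distances describe the genes that the same contrast had called.

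**Figure D5:**
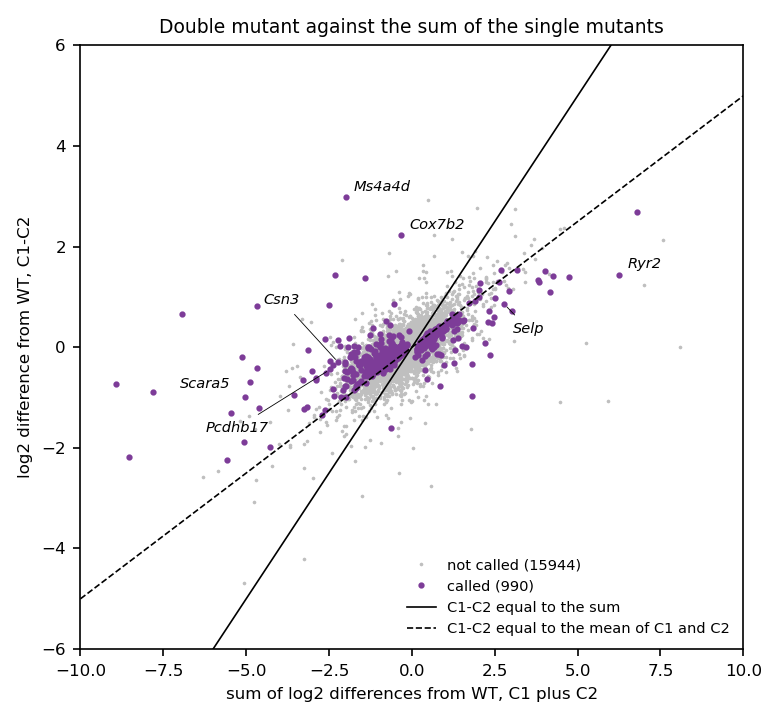
Log2 difference of C1-C2 from WT (vertical axis) against the sum of the differences of C1 and C2 from WT (horizontal axis), treatments averaged, for each tested gene. Grey points are the 15944 genes not called, purple points the 990 called for a departure from additivity. The solid line marks the sum and the dashed line the mean of C1 and C2. 3 genes lie outside the axes. Most purple points lie along or inside the dashed line, with Ms4a4d and Cox7b2 far above it.

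The largest departures upward, among genes with at least 1 CPM, were those of Ms4a4d with 4.99 ± 0.31, Scara5 with 4.18 ± 0.38, Cox7b2 with 2.56 ± 0.34, Pcdhgb7 with 2.24 ± 0.26, Pcdhb17 with 2.02 ± 0.3 and Csn3 with 1.92 ± 0.21 (log2, SE). They were of different kinds. Ms4a4d lay 2.99 above WT in C1-C2, and 1.29 and 0.71 below WT in C1 and C2. Scara5 lay below WT in all 3 mutants, by 0.69 in C1-C2, 2.31 in C1 and 2.57 in C2. Cox7b2 lay 2.23 above WT in C1-C2 and 1.44 above it in C1, but 1.77 below it in C2. Of the clustered protocadherins 16 of 27 were called upward, against 2.69% of all tested genes, and 0 downward, with a median of 2.1, against 2e-04 over all tested genes. Many of these protocadherins had few counts, so this median is imprecise.

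The largest departures downward, among genes with at least 1 CPM and a curated symbol, were those of Ryr2 with -4.81 ± 0.32, S100a7a with -2.52 ± 0.42, Mertk with -1.93 ± 0.43, Selp with -1.92 ± 0.42, Ceacam3 with -1.63 ± 0.29 and Olfr1349 with -1.62 ± 0.24 (log2, SE). Ryr2 lay above WT in all 3 mutants, by 1.44 in C1-C2, 2.59 in C1 and 3.67 in C2. Ceacam3, a gene of the CEA adhesion family, lay above WT by nearly the same distance in each, 1.54 in C1-C2, 1.64 in C1 and 1.53 in C2. It was at 2.42 to 3.21 CPM in C1-C2, 2.06 to 3.51 CPM in the single mutants and 1.82 to 3.35 CPM in EV with IPTG, all overlapping, against 0.669 to 1.36 CPM in WT. Mertk, a receptor tyrosine kinase gene that takes part in the uptake of dying cells, was at 1.78 and 2 CPM in C1-C2, against 2.12 to 2.59 CPM in the single mutants and 1.44 and 1.75 CPM in WT with dexamethasone. With ethanol it had 3 and 4 counts, 0.0766 and 0.0919 CPM, in C1-C2, against 6 to 10 counts, 0.147 to 0.259 CPM, in the single mutants and 2 counts, 0.0496 and 0.0514 CPM, in each WT library. Its adjusted p was 0.361 with the doubtful library under its treatment label. Selp, which encodes P-selectin, lost its call on leaving out any of 6 of the 16 libraries, with adjusted p values between 0.0507 and 0.0598.

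Stag1, the cohesin subunit gene of its list that was called here, was chosen after its values were seen. As with Ceacam3, all 3 mutants lay above WT, but C1-C2 lay between WT and the single mutants in each treatment. Stag1 in C1-C2 was nearer to the single mutants than to WT. Its level was 162 and 170 CPM with dexamethasone and 203 and 208 CPM with ethanol in C1-C2, 178 to 185 CPM and 211 to 222 CPM in the single mutants, and 140 and 140 CPM and 162 and 162 CPM in WT. EV cells with IPTG held 187 and 179 CPM with dexamethasone and 221 and 222 CPM with ethanol, near the single mutants. The departure was -0.49 ± 0.05 (log2, SE, adjusted p = 1.7e-06 in edgeR), while the difference of C1-C2 from the mean of the single mutants was -0.1 ± 0.03 with an adjusted p of 0.348. Among the cell cycle and replication genes 7 of 24 were called downward, against 3.16% of all tested genes, and 0 upward, with a median of -0.17. Among the collagens and matrix genes 6 of 18 were called upward, against 2.69% of all tested genes, and 0 downward, with a median of 0.15. The lists of p53 targets and of ATF4 and unfolded protein response genes had 3 of 19 called upward and 5 of 20 called downward, beside the same 2.69% and 3.16%.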

How the data were processed

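The authors deposited 1 table of raw read counts per gene for 24 libraries made with the Illumina Stranded Total RNA Prep with Ribo-Zero Plus, per the labels. The submitters' processing notes name bcl2fastq 2.20, cutadapt 1.18, STAR 2.7.0f, featureCounts, Subread 2.0.3 and the build mm10. The annotation release, the strand setting and the treatment of multi-mapping reads are not given in the sources used here. The table held 0 value columns outside the 24 libraries.

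Groups were taken from titles, with 2 libraries in each of 12 groups. Of 55341 genes 38407 were removed by edgeR's filter on low counts and 16934 were tested. All 24 libraries were fitted with 1 mean per group (edgeR 4.0.16, limma 3.58.1, R 4.3.3, TMM factors, quasi-likelihood F-test, 12 residual degrees of freedom), and p-values were adjusted by Benjamini-Hochberg over all tested genes, with calls at 0.05. The median biological coefficient of variation was 6.43%. The SE is the absolute log2 difference divided by the square root of F. Contrasts weighted the treatments equally and were tested on simulated data. Named genes came from called genes with a mean of at least 1 CPM over the 12 mutant libraries and a curated symbol: the 12 largest differences in each direction among those whose C1-C2 libraries lay outside all single-mutant libraries of each treatment, the 6 largest departures from additivity in each direction, up to 4 called genes per list, and Nipbl, Mau2, Nr3c1, Per1 and Tsc22d3. 1 result under this rule is not reported here. The members, the 17 gene lists and the 5 marker lists were chosen with earlier results of these data known. Alternatives were RLE factors, no filter, a stricter filter, DESeq2 1.42.0, replicate blocks, fits on the compared libraries alone, an additive fit, leaving out Gm26917 and Gm42418, leaving out each library, and the other label of ethanol replicate 2 of C1-C2. Removal of a GC and length trend was chosen after seeing the data.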

Additional observations from a re-analysis of the deposited data

How the results depend on the processing

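The count of genes called between C1-C2 and the mean of the single mutants, 70, ran from 41 to 77 with 1 library left out. The count against C1 ran from 66 to 80, against C2 from 56 to 76, with ethanol from 3 to 17, with dexamethasone from 9 to 15, for the difference of responses from 0 to 1, for departure from additivity from 463 to 1581, and between C1 and C2 from 137 to 186. Without the filter on low counts the counts were 136 against the mean of the single mutants, 207 against C1, 168 against C2, 40 with ethanol, 63 with dexamethasone, 3 for the difference of responses, 1518 for additivity and 326 between C1 and C2. With ethanol replicate 2 of C1-C2 under its treatment label they were 34, 50, 50, 4 with ethanol, 1 for the difference of responses, 279 for additivity and 118 between C1 and C2, and the differences of Nr3c1 and Tsc22d3, not called, were 0.11 and -0.23. A stricter filter gave 11 with dexamethasone and a fit on the compared libraries alone 74, and a fit with additive treatment and construct gave 187 against C1. DESeq2 gave 76 against the mean of the single mutants. Deviations of same-numbered libraries correlated at 0.455, 0.055 and 0.037 with dexamethasone and 0.039, 0.267 and 0.244 with ethanol. Across treatments the correlations ran from 0.064 to 0.43. These mixed values do not settle whether the numbers pair the libraries, and the main fit took them as unpaired. A replicate block gave 101 against the mean of the single mutants, 32 with ethanol, 1783 for additivity and 325 between C1 and C2, and a replicate block within treatment gave 106, 31, 1745 and 325. Of the values of called genes under alternatives other than leaving out a library, 368 kept their call and 27 lost it, and with a library left out 420 kept it and 72 lost it. Apart from counts that were stated with their library, the cause of these changes was not tested. With 2 libraries per group and genes of few counts, small differences cannot be resolved.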

Other observations

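Some of the genes called between C1-C2 and the mean of the single mutants had few counts, and those given here were chosen after their values were seen. Tex101, a testis-expressed surface protein gene, had 19, 23, 14 and 19 counts in C1-C2, 9, 4, 2 and 3 in C1, 0, 0, 0 and 1 in C2 and 15, 17, 9 and 9 in WT. Gas7, which encodes an actin-binding protein, had 13, 13, 7 and 13 counts in C1-C2, 2, 5, 0 and 3 in C1, 1, 1, 0 and 0 in C2 and 34, 21, 13 and 15 in WT. Dlgap1, a gene of the postsynaptic scaffold, was lower, with 10, 18, 11 and 9 counts in C1-C2, 63, 59, 44 and 52 in C1 and 21, 25, 14 and 15 in C2. In each list the dexamethasone libraries stand before the ethanol libraries. Genes within 200 kb of the leading genes, a window chosen after seeing the data, were mostly not called. None of the 6 tested neighbours of Scara5, the 3 of Ryr2, the 4 of Cd48 or the 8 of Tpsab1 was called, and the 1 tested neighbour of Rsad2, Cmpk2, was. Of all tested genes 0.413% were called, so 0 calls among so few neighbours are near the background. Ms4a4d and Cox7b2 had 0 tested neighbours in the window.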
